A study of Rattus norvegicus with 9 samples.

Results

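Cholinergic and motor neuron genes are described here in the spinal cord of female Sprague-Dawley rats at 35 dpi (days post-injury). The list holds 8 genes (Chat, Slc18a3, Slc5a7, Ache, Isl1, Mnx1, Prph and Chodl), matched by symbol to a count table of 30507 rows, with counts in 1 or more libraries for 22777 of them. In all, 7 of the 8 genes had a row, each on a single row that overlaps no other row, and Slc18a3 was not analysed here. There were 9 libraries, 1 per rat, and the Sham, SCI and SCI + SCS groups had 3 rats each. All rats were wild-type and 8 weeks old on arrival. Sham rats are described by the study's methods as having had the vertebral bone opened without contusion or electrode, whereas the labels describe them as normal and not treated. SCI rats had a contusion at T10 and carried only an external plug on the neck, with no electrode in the spinal canal. SCI + SCS rats had the same contusion, an implanted epidural electrode and high-frequency spinal cord stimulation (HF-SCS) at 10 kHz for 2 h per day from 1 dpi. Electrode and stimulation therefore cannot be told apart in these libraries. RNA came from whole tissue of the T9-T11 segments around the lesion, and a single batch is named for all samples. In such bulk tissue, fewer cells of a type and less RNA per cell cannot be told apart.

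Acetylcholine is the transmitter of spinal motor neurons, of the autonomic preganglionic neurons of the thoracic cord and of a small set of interneurons. Choline enters the terminal through the high-affinity transporter encoded by Slc5a7, is joined to an acetyl group by choline acetyltransferase (Chat), is loaded into vesicles by the transporter encoded by Slc18a3, and after release is split by acetylcholinesterase (Ache). Isl1 and Mnx1 encode homeodomain transcription factors that specify motor neurons, Prph encodes peripherin, an intermediate filament of neurons with peripheral axons, and Chodl encodes chondrolectin, a membrane protein of fast motor neurons. Isl1 and Prph are also used by sensory neurons of the dorsal root ganglion, and Ache is made by many neurons that are not cholinergic.

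The genes lie on separate chromosomes in the files' build, mRatBN7.2. Chat (ENSRNOG00000025012) is at chr16:7657362-7717093 on the minus strand and is typed as a pseudogene in the count table, while the other 6 rows are typed as protein coding. Slc5a7 (ENSRNOG00000010597) is at chr9:7595444-7626258 and Ache (ENSRNOG00000050841) at chr12:19407360-19413651, both on the minus strand. Isl1 (ENSRNOG00000012556) is at chr2:48080522-48090444 on the minus strand and Mnx1 (ENSRNOG00000046959) at chr4:5866506-5871465 on the plus strand. Prph (ENSRNOG00000052880) is at chr7:130218357-130222136 and Chodl (ENSRNOG00000001915) at chr11:17654206-17676441, both on the plus strand. In the RefSeq annotation, Slc18a3 lies within the Chat gene, and whether its reads were counted in the Chat row was not tested.

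The 250 bases before the RefSeq gene start (build GRCr8) are shown for 4 members, those of choline uptake and acetylcholine synthesis and breakdown and the filament gene with the most reads, because their RNA levels carry most of the comparisons. Capitals mark 4 motifs searched on both strands, namely TATAAA (the TATA box), GGGCGG (the GC box), TGACG (only a part of the cyclic AMP response element) and TAATTA (a homeodomain core). All 8 genes had an entry. The windows are on the minus strand at chr16:7723417-7723666 for Chat, chr9:7953510-7953759 for Slc5a7 and chr12:25050411-25050660 for Ache, and on the plus strand at chr7:132097039-132097288 for Prph.
Chat: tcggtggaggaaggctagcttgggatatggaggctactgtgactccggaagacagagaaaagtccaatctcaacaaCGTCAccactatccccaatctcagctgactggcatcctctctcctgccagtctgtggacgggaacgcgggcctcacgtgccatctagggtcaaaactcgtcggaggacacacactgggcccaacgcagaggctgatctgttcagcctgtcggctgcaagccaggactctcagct
Slc5a7: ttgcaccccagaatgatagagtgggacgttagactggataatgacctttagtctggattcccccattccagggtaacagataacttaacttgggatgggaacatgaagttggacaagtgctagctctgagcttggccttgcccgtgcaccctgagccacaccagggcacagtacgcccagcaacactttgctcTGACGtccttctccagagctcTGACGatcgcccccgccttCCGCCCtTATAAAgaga
Ache: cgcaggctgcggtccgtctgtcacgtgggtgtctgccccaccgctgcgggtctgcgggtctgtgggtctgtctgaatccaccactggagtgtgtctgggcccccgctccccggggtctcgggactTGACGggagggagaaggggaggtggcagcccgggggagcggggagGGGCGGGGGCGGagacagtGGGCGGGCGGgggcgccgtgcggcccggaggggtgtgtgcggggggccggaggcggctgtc
Prph: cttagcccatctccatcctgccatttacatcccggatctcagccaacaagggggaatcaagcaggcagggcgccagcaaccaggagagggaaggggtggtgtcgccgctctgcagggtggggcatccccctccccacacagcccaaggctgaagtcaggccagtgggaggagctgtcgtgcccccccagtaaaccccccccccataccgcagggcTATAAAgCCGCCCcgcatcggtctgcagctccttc
The Slc5a7 window held TATAAA 5 to 10 bases before the start, an antisense GGGCGG directly before it and TGACG at 2 positions. The Chat window held a single antisense TGACG, and the Ache window held 1 TGACG and 4 matches to GGGCGG, of which 2 stand side by side and the other two overlap. The Prph window held TATAAA followed by an antisense GGGCGG. Over the 8 windows, TATAAA was found in 3, GGGCGG in 4, TGACG in 3 and TAATTA in 0, against 12.9%, 30.5%, 18.2% and 4.86% of all 33469 windows of this length. No motif was common to all 4 windows shown, and a match is a description of letters only.

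Library totals were 62844376 to 88358570 counts, so that 3 counts, the smallest level taken as detectable, were worth 0.0341 to 0.0472 CPM (counts scaled to a library of 1000000). The tissue carried its defining markers, with summed levels in the Sham libraries of 4964 to 8762 CPM for 15 pan-neuronal genes and 24092 to 33006 CPM for 8 oligodendrocyte genes. Some libraries stood apart in markers of neighbouring tissues. Sham replicate 2 held 349 CPM of 12 dorsal root ganglion genes, against 17.6 to 39.3 CPM in the other 8 libraries, and 4873 counts of the sensory sodium channel Scn10a, against 7 to 215. SCI replicates 1 and 3 held 4598 and 1604 CPM of 17 skeletal muscle genes, against 220 to 345 CPM elsewhere. Taking the skeletal muscle and adipocyte genes out of the table changes little besides the library size. It cannot remove reads of the members that came from those tissues, so it does not settle their part. After it, 6 of the 7 members described below were lower in SCI against Sham by the thresholds used here, as before it. Without SCI replicate 1 there were also 6, and without SCI replicate 3 there were 4. Values without Sham replicate 2 are given beside the results that they touch.

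**Figure D1:**
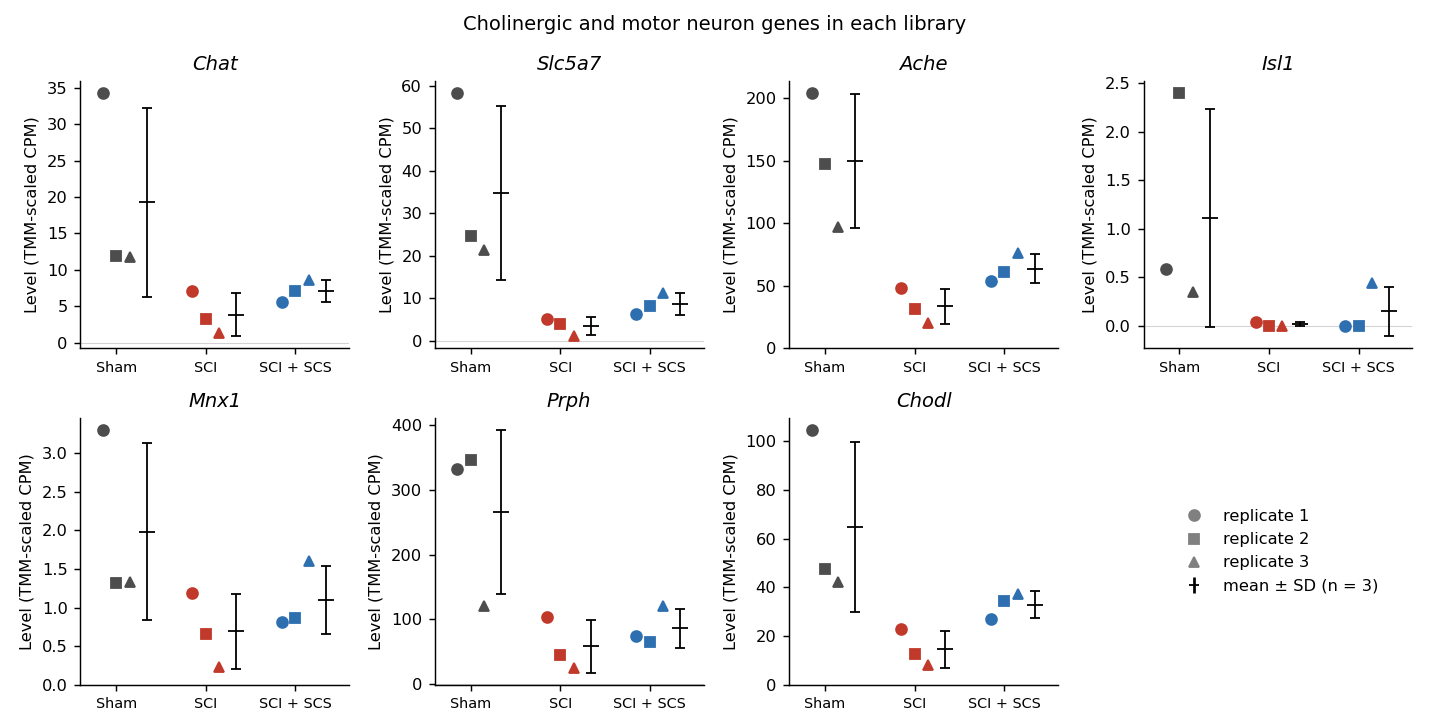
Level (CPM, scaled by TMM) of the 7 genes in each library, 1 panel per gene with its own axis, with points for rats and the mean ± SD of 3 rats beside them. All 3 Sham libraries lie above all 3 SCI libraries in every panel, and the SCI + SCS mean lies between the other means in each.

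Slc5a7, the choline transporter, had the lowest SCI level relative to Sham of the 6 genes with more than 3 counts in SCI. Its level was 58.3, 24.7 and 21.4 CPM in the Sham libraries, 5.05, 4.0 and 1.07 CPM in the SCI libraries, and 6.24, 8.12 and 11.3 CPM in the SCI + SCS libraries. The 3 groups did not overlap, with Sham highest, SCI + SCS between and SCI lowest. The SCI mean was 9.70% of the Sham mean and the SCI + SCS mean 24.6%. Slc5a7 fell in SCI against Sham, with a log2FC of -3.38 ± 0.66 (SE) and an adjusted P=0.00725 (edgeR). A gene is counted as a differentially expressed gene (DEG) here where |log2FC| exceeds 1 and the P adjusted over all genes tested is under 0.05.

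Chat was at 34.3, 11.9 and 11.7 CPM in Sham, 7.07, 3.19 and 1.29 CPM in SCI, and 5.56, 7.11 and 8.57 CPM in SCI + SCS. Sham replicate 1 stood well above the other Sham libraries, and the SCI and SCI + SCS libraries overlapped. Chat fell in SCI against Sham (log2FC -2.34 ± 0.71, adjusted P=0.0331, edgeR), but did not pass without Sham replicate 1 (0.0868), SCI replicate 2 (0.101) or SCI replicate 3 (0.0684), and was just above the threshold without Sham replicate 2. The SCI + SCS mean was 36.7% of the Sham mean.

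Ache, the enzyme that ends the signal, was at 205, 148 and 96.8 CPM in Sham, 48.0, 31.7 and 20.4 CPM in SCI, and 53.7, 61.0 and 76.3 CPM in SCI + SCS. The 3 groups did not overlap. Ache fell in SCI against Sham (log2FC -2.19 ± 0.39, adjusted P=0.00535, edgeR), to 22.3% of the Sham mean.

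The transcription factor genes were the members with the fewest reads. Isl1 had 37, 211 and 30 counts in Sham, 3, 0 and 0 in SCI, and 0, 0 and 28 in SCI + SCS. Its highest library was Sham replicate 2, the library with the most dorsal root ganglion RNA, and its only SCI + SCS library with reads was replicate 3, which had the next highest sum of those genes (39.3 CPM). The summed level was 84.7 times higher in Sham than in SCI, with an exact 95% interval of 28.7 to 413 that covers counting error only. Most of the Sham counts were those of Sham replicate 2 (211), so that library largely sets this fold. The fold and its interval were not computed without that library. Isl1 fell in SCI against Sham (adjusted P=0.00861, edgeR), also without Sham replicate 2 (adjusted P=0.0246). Mnx1 had 210, 116 and 116 counts in Sham, 94, 46 and 16 in SCI, and 58, 61 and 102 in SCI + SCS. Sham lay above SCI in every library, but the difference did not pass the threshold (log2FC -1.53 ± 0.66, adjusted P=0.0961, edgeR). It did with DESeq2 (adjusted P=0.0438) and when replicate numbers entered as a block (adjusted P=0.0276, edgeR). Replicate numbers do not mark shared animals, so the block is given as an alternative only.

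Prph was at 332, 346 and 120 CPM in Sham, 103, 45.5 and 25.5 CPM in SCI, and 73.6, 64.6 and 121 CPM in SCI + SCS. The lowest Sham library and the highest SCI + SCS library were at nearly the same level, and the highest SCI library was just below both. Prph fell in SCI against Sham (log2FC -2.21 ± 0.61, adjusted P=0.0242, edgeR). Without Sham replicate 2 the log2FC was -1.99 with an adjusted P=0.0712, and the adjusted P was also above 0.05 without Sham replicate 1 or SCI replicate 2 or 3.

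Chodl was at 105, 47.4 and 42.0 CPM in Sham, 22.9, 12.6 and 8.07 CPM in SCI, and 27.1, 34.4 and 37.5 CPM in SCI + SCS. The 3 groups did not overlap. Chodl fell in SCI against Sham (log2FC -2.17 ± 0.50, adjusted P=0.0129, edgeR), to 22.4% of the Sham mean, and passed the threshold whichever library was left out.

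In SCI against Sham, 6 of the 7 genes were thus lower DEGs, where 13.6% of the 17822 genes tested were lower DEGs and 13.4% higher ones. All 7 had every Sham library above every SCI library, against 31.0% of genes tested. The members' median log2FC was -2.21, and that of all genes tested was 0.02. Without Sham replicate 2, 4 of the 7 genes remained lower DEGs (Slc5a7, Ache, Isl1 and Chodl), beside 2069 of all 18054 genes. The fall was shared with neurons in general. All 15 pan-neuronal genes were lower DEGs, with a median of -2.16, as were 10 of 13 genes of neurons with other transmitters, with a median of -2.01. Rbfox3, which encodes the neuronal nuclear marker NeuN, had a log2FC of -1.77, Snap25, a synaptic vesicle fusion gene, had -2.16, and Tubb3, neuronal tubulin, had -1.38 (adjusted P=0.045, edgeR), with overlap between the groups. Without Sham replicate 2, 14 of the 15 were lower DEGs, and Tubb3 had an adjusted P=0.0986. Over the same libraries, 6 of 9 microglia and macrophage genes and 7 of 7 fibroblast genes were higher DEGs and 5 of 8 oligodendrocyte genes were lower DEGs.

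**Figure D2:**
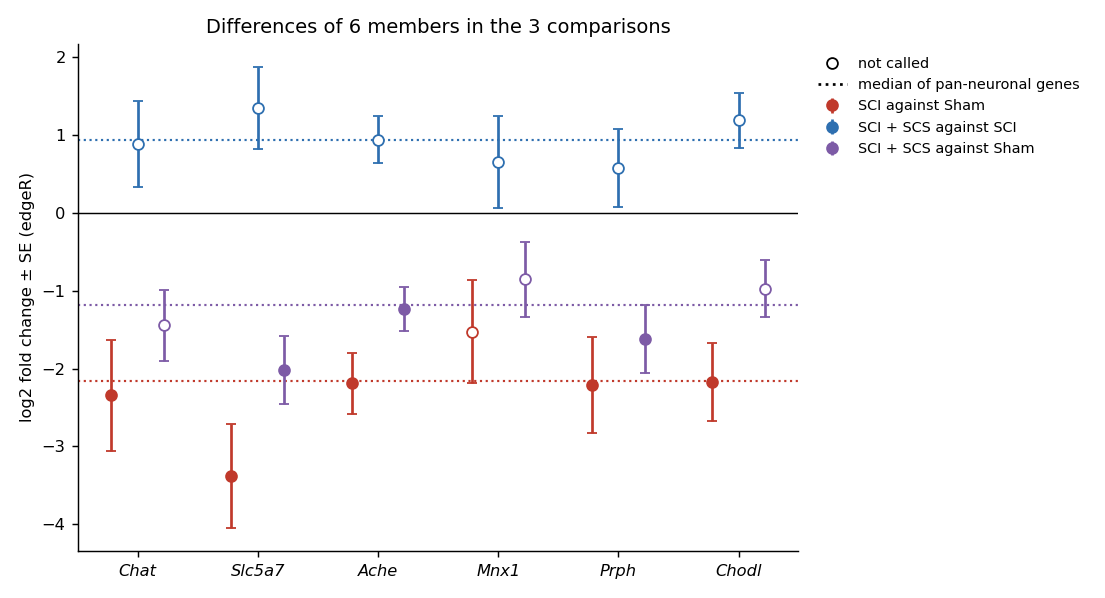
Log2 fold change ± SE (edgeR) of 6 genes in the 3 comparisons, filled where the gene is a DEG, with dotted lines at the median of the 15 pan-neuronal genes. Most points lie within 1 SE of the line of their own comparison, and Slc5a7 lies furthest below it in both comparisons with Sham. Isl1, with 3 counts over the SCI libraries, is not drawn.

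To ask which members differed from the neuronal total, the counts were also compared relative to the summed counts of the 15 pan-neuronal genes. On this scale Slc5a7 and Isl1 were lower DEGs in SCI against Sham, that is 2 of 7 members, where 0.773% of all genes were. That share is low by construction and is not a share of neuronal genes. The pan-neuronal counts were 0.491% to 0.845% of all counts in Sham and 0.125% to 0.252% in SCI, so genes outside neurons shift upward here. Slc5a7 had 66.5, 39.6 and 43.1 counts per 10000 pan-neuronal counts in Sham and 18.5, 22.9 and 8.91 in SCI, with no overlap. The log2FC on this scale was -1.57 ± 0.51 with an adjusted P=0.00593 (edgeR), and it stayed between -1.27 and -2.03, and a DEG, under 9 alternatives. These included genes of neurons with other transmitters as the reference (log2FC -2.03, adjusted P=0.00718), a reference chosen after the data were seen. Isl1 was also a DEG on this scale, with an adjusted P of 0.000423, and of 0.0341 without Sham replicate 2 (edgeR). A fall beyond the summed counts is not a fall beyond every neuronal gene. On the CPM scale, Slc5a7 had a log2FC of -3.38 in SCI against Sham. Those of the 15 pan-neuronal genes ran from -3.74 to -1.38, and those of 13 genes of other transmitters from -5.44 to -0.65.

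None of the other 5 members was a DEG relative to neurons. Chat had 39.1, 19.1 and 23.6 counts per 10000 pan-neuronal counts in Sham and 25.8, 18.2 and 10.7 in SCI (log2FC -0.57 ± 0.52, adjusted P=0.307, edgeR). Ache had 234, 237 and 195 in Sham and 175, 181 and 169 in SCI, without overlap, and a log2FC of -0.34 ± 0.46 (adjusted P=0.492, edgeR). With the other transmitter genes as the reference Ache had a log2FC of -0.85 and an adjusted P=0.0211, under the fold threshold. Prph and Chodl had log2FCs of -0.47 ± 0.48 and -0.33 ± 0.47, and Mnx1 one of 0.24 ± 0.65.

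**Figure D3:**
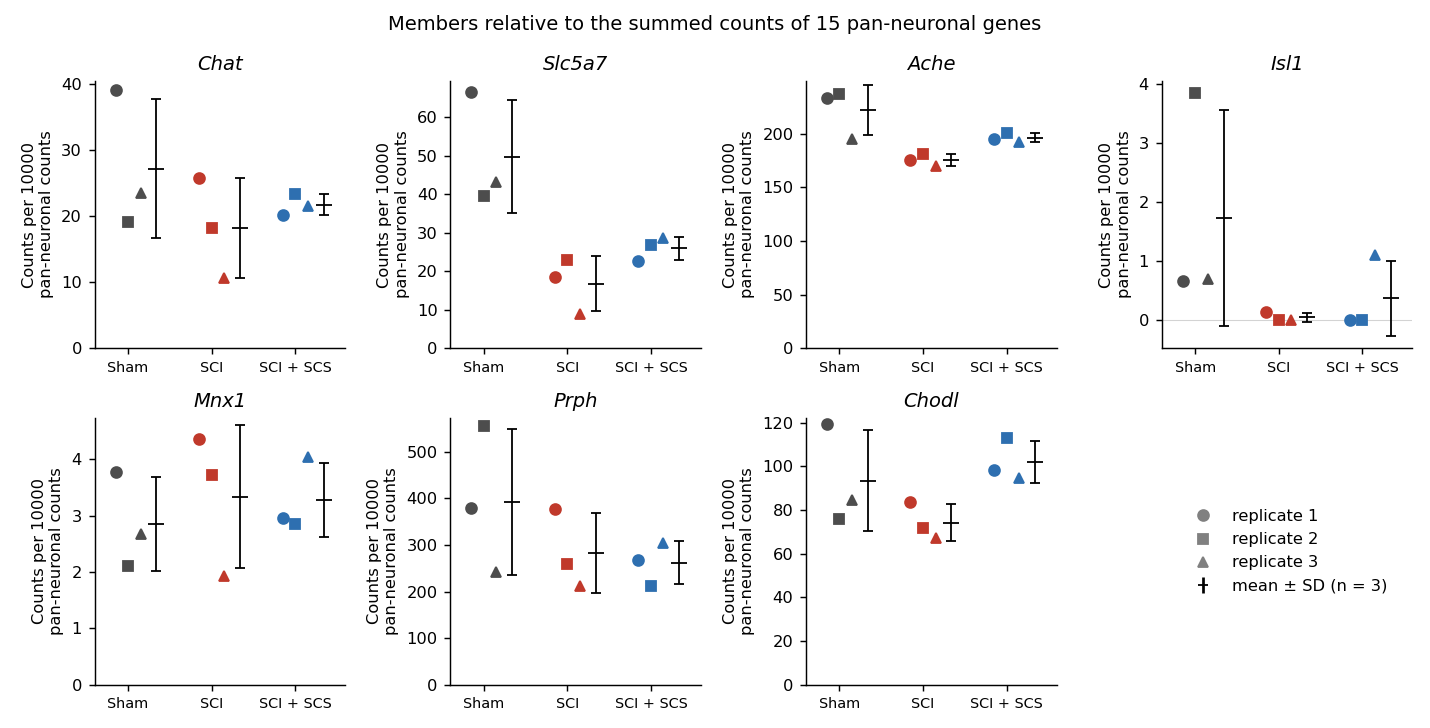
Counts of each member per 10000 summed counts of the 15 pan-neuronal genes, with points for rats and the mean ± SD of 3 rats. Slc5a7 is at 39.6 to 66.5 in Sham, 8.91 to 22.9 in SCI and 22.7 to 28.5 in SCI + SCS, whereas Sham and SCI points overlap for Chat, Mnx1, Prph and Chodl.

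The order of Slc5a7 and Chat differed between the groups. In FPKM, which is scaled by gene length, Slc5a7 was 1.25, 1.53 and 1.35 times the level of Chat in the Sham libraries, 0.526, 0.925 and 0.618 times in SCI, and 0.827, 0.841 and 0.970 times in SCI + SCS. Slc5a7 RNA was thus above Chat RNA in all 3 Sham libraries and below it in the other 6. This ratio was chosen after the values were seen and has no test. It also rests on the Chat row, which is typed as a pseudogene and was not tested for reads of Slc18a3. By group mean, the other members stood in the same order in all 3 groups. In Sham, Prph (54.9 to 162 FPKM) and Ache (35.9 to 74.2) overlapped, Chodl (14.3 to 34.8) lay below both, Slc5a7 (3.51 to 9.33) and Chat (2.61 to 7.45) overlapped, and Mnx1 (0.571 to 1.39) and Isl1 (0.220 to 1.62) were lowest and overlapped. In SCI the ranges were 12.2 to 42.4 FPKM for Prph, 7.90 to 16.0 for Ache, 2.81 to 6.88 for Chodl, 0.297 to 1.41 for Chat, 0.183 to 0.742 for Slc5a7, 0.104 to 0.460 for Mnx1 and 0 to 0.0189 for Isl1, so that Prph and Ache overlapped, as did Chat, Slc5a7 and Mnx1 with each other. In SCI + SCS they were 30.2 to 56.7 FPKM for Prph, 20.5 to 29.1 for Ache, 9.50 to 13.1 for Chodl, 1.27 to 1.96 for Chat, 1.05 to 1.90 for Slc5a7, 0.360 to 0.709 for Mnx1 and 0 to 0.299 for Isl1, where Chat and Slc5a7 alone overlapped.

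In SCI + SCS against SCI, none of the 6 members tested was a DEG in edgeR, where 1 gene of 17663 (0.00566%) was a higher DEG. Isl1 did not pass the filter on low counts in this comparison. All 6 had positive log2FCs, with a median of 0.91 beside -0.01 for all genes. The log2FC was 1.35 ± 0.53 for Slc5a7 (adjusted P=0.180), 1.19 ± 0.36 for Chodl (adjusted P=0.119) and 0.94 ± 0.30 for Ache (adjusted P=0.128). These 3 had an unadjusted P under 0.05 and no overlap between the groups, where 13.3% of genes were higher at an unadjusted P under 0.05 and 15.7% were higher without overlap. Chat (0.88 ± 0.55, adjusted P=0.369), Mnx1 (0.66 ± 0.59, adjusted P=0.532) and Prph (0.58 ± 0.50, adjusted P=0.515) overlapped between the groups.

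With DESeq2, the test of the study's methods, Slc5a7 (adjusted P=0.0419) and Chodl (adjusted P=0.00788) were higher DEGs, that is 2 of 6 members, where 2.54% of the 16197 genes with an adjusted P were. Ache had an adjusted P=0.0161 with a log2FC of 0.94, under the fold threshold. The pan-neuronal genes had a median of 0.93 in the same comparison, and 11 of 15 were higher at an unadjusted P under 0.05. Relative to the pan-neuronal counts no member was a DEG or had an unadjusted P under 0.05, with log2FCs from -0.12 for Prph to 0.63 ± 0.47 for Slc5a7. Chodl, at 98.3, 113 and 94.6 counts per 10000 pan-neuronal counts in SCI + SCS against 83.7, 71.9 and 67.1 in SCI, did not overlap on this scale (0.46 ± 0.44, adjusted P=0.365). Ache did not overlap on it either, at 195, 201 and 192 in SCI + SCS against 175, 181 and 169 in SCI. The other members overlapped. The share of all genes without overlap on this scale was not computed. Skeletal muscle genes, which were high in SCI replicates 1 and 3, moved the other way, with 14 of 16 lower at an unadjusted P under 0.05, as did 6 of 7 fibroblast genes, 4 of 9 microglia and macrophage genes and 3 of 5 adipocyte genes. On the same rule, 4 of 7 astrocyte genes and 5 of 8 oligodendrocyte genes were higher. Of all 17663 genes, 1926 were lower and 2348 higher on this rule. No member was a DEG in this comparison when any 1 library was left out.

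In SCI + SCS against Sham, 3 of the 7 members were lower DEGs, where 5.44% of the 17640 genes tested were. Slc5a7 (log2FC -2.02 ± 0.44, adjusted P=0.0178), Ache (-1.23 ± 0.28, adjusted P=0.0203) and Prph (-1.62 ± 0.44, adjusted P=0.0337) fell, Prph with overlap between the groups. Chat (-1.44 ± 0.46, adjusted P=0.0529) and Chodl (-0.97 ± 0.36, adjusted P=0.0810) were lower without overlap but did not pass, so that 4 of 7 members had no overlap, against 26.0% of genes. Mnx1 (-0.85 ± 0.48, adjusted P=0.204) and Isl1 (adjusted P=0.170) overlapped. Only Slc5a7 of these 7 was a lower DEG without Sham replicate 2 (adjusted P=0.0435), none was when replicate numbers entered as a block, and none was without SCI + SCS replicate 1 or 2. Slc5a7 was also lower relative to neurons (log2FC -0.94 ± 0.30, adjusted P=0.0245, edgeR), under the fold threshold for a DEG. On that scale 0.524% of genes were lower at an adjusted P under 0.05. That share too is low by construction, because the neuronal total was lower than in Sham. Of the pan-neuronal genes, 10 of 15 were lower DEGs, with a median of -1.18, and 5 of 15 without Sham replicate 2. Without that library, 414 of all 17927 genes were lower DEGs.

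The members also varied together between rats. Across the 9 libraries, log2(CPM + 1) had a Pearson r of 0.98 between Chat and Chodl, 0.97 between Chat and Slc5a7 and 0.96 between Chat and Mnx1, whereas r with Isl1 was between 0.47 and 0.80. Within groups, after the group means were removed, r was 0.99 for Chat and Chodl and -0.11 for Chat and Isl1. The points share their group, depth and neuronal RNA content, so these are descriptions. Sham replicate 1 was the highest Sham library for Chat, Slc5a7, Ache, Mnx1 and Chodl, SCI replicate 1 was the highest SCI library for all 7 members, and SCI + SCS replicate 3 was the highest SCI + SCS library for all 7.

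Among 16279 genes compared over the 9 libraries, the genes most like each member were named by r. For Chat these were Gsk3a, Grb2, Ankrd13d, Pitpna and Gria3, with r of 0.99 for each. Their levels spanned less of a range (0.62 to 2.62 on the log2 scale) than that of Chat (3.95), so that the shape was alike and not the size. For Slc5a7 they were Cntn6, Cxxc4 and Aldh1b1 (r of 0.997 to 0.998), and for Ache they were Gpr22, Snurf and Nsf (0.998 to 0.999). Mnx1 was most like Slc10a4 (r of 0.99), a gene of the bile acid transporter family found on synaptic vesicles of cholinergic neurons, then Cck and Yju2 (0.98 each). Isl1 was most like Gna14 (0.99) and Pou4f3 (0.98). Prph was most like Ids, Camk4 and Stmn2 (0.98 to 0.99), and Chodl most like Tceal3, Slco1c1 and Ptpn5 (0.994 to 0.997).

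Beyond the members, 7 lists of other cholinergic and motor neuron genes held 88 genes, of which 81 were tested in SCI against Sham, with 38 lower and 4 higher DEGs, beside 13.6% and 13.4% of all genes. Without Sham replicate 2 these were 28 and 4 of 82, beside 2069 and 1839 of all 18054 genes. Of 12 genes of choline supply and acetylcholine breakdown, 3 were lower and 1 higher. Slc44a5, a choline transporter-like gene, had 39, 29 and 34 counts in Sham and 0, 5 and 0 in SCI (adjusted P=0.0177, edgeR). Pcyt1b, a neuronal enzyme of phosphatidylcholine synthesis, fell by 2.81 on the log2 scale (adjusted P=0.00199). Slc44a4, another choline transporter-like gene, rose by 1.48 (adjusted P=0.0436), from 18, 52 and 75 counts to 82, 114 and 157, but without Sham replicate 2 its adjusted P was 0.114 (log2FC 1.49) and it was not a DEG.

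Of the receptors of acetylcholine, 5 of 11 nicotinic subunit genes tested and 3 of 5 muscarinic genes were lower DEGs in SCI against Sham and none was higher. Chrnb2, a main subunit of neuronal nicotinic receptors, was at 7.70, 9.26 and 2.02 CPM in Sham and 0.584, 0.610 and 0.159 CPM in SCI (log2FC -3.82 ± 0.74, adjusted P=0.00694, edgeR). Chrna3 (log2FC -3.03) and Chrna7 (-4.87) were lower too, but both were highest in Sham replicate 2, with 1024 and 170 counts, and had adjusted Ps of 0.0552 and 0.0579 without it. Chrm2, the receptor at the large cholinergic synapses onto motor neurons, fell by 2.25 (adjusted P=0.00956), Chrm3 by 1.67 and Chrm4 by 1.39. Without Sham replicate 2, Chrm2 and Chrm3 were still DEGs and Chrm4 was not (adjusted P=0.0732). Of 7 nicotinic accessory genes, 4 were lower DEGs, among them Lynx1, a brake on nicotinic receptors (log2FC -2.08, adjusted P=0.00703), Tmem35a, a chaperone of receptor assembly (-1.86, adjusted P=0.00171), and Lypd6b (-1.86, adjusted P=0.00737). All 3 passed without Sham replicate 2.

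**Figure D4:**
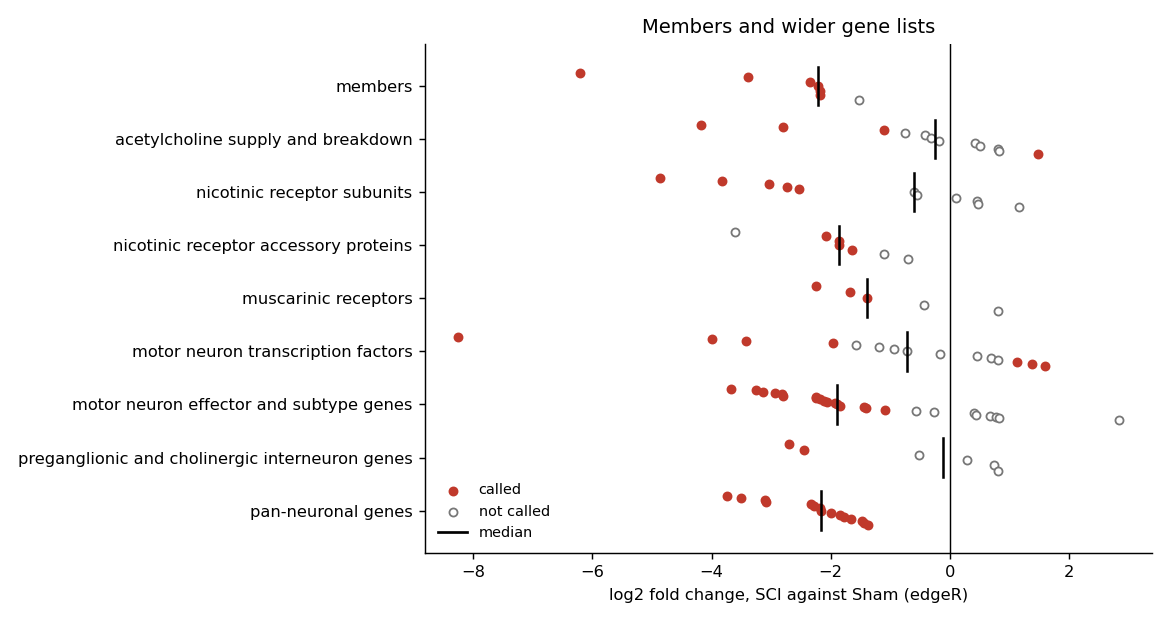
Log2 fold change in SCI against Sham of each gene tested, by list, red where the gene is a DEG, with a black line at the list's median. The medians of the members (-2.21) and the pan-neuronal genes (-2.16) lie close together, and the transcription factor list is spread to both sides of 0.

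The 15 motor neuron transcription factor genes were split, with 4 lower and 3 higher DEGs and a median of -0.72. The highest SCI means relative to Sham were those of Pou3f1 (307% of the Sham mean), Nr2f2 (263%) and Nkx6-1 (221%). The genes with the largest |log2FC|, described next, were all lower. Esrrb, an orphan receptor gene of the estrogen-related family, had 33, 54 and 31 counts in Sham and 0 in every SCI library, so that Sham was at least 12-fold higher against a floor of 3 counts per library. Esrrg of the same family, a marker of gamma motor neurons, fell by 4.0 on the log2 scale (adjusted P=0.00753, edgeR), from 279, 413 and 146 counts to 37, 10 and 4. Isl2, the relative of Isl1, had 220, 1117 and 70 counts in Sham and 48, 40 and 29 in SCI (log2FC -3.42, adjusted P=0.0244), and an adjusted P=0.0602 without Sham replicate 2.

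Of 25 motor neuron effector and subtype genes tested, 17 were lower DEGs and none was higher, with a median of -1.90. Nefl, the light neurofilament chain, fell by 3.13 (adjusted P=0.00808, edgeR), from 147314, 122917 and 76293 counts to 22982, 12425 and 4253. It was also lower relative to the summed pan-neuronal counts (log2FC -1.36, adjusted P=0.00816, edgeR). Sv2c, a synaptic vesicle gene, and Htr1d, a serotonin receptor gene, had log2FCs of -3.26 and -3.67. Both were highest in Sham replicate 2, with 711 and 104 counts, and had adjusted Ps of 0.0646 and 0.112 without it. Without that library 10 of the 25 genes were lower DEGs, beside 2069 of all 18054 genes. Of 6 preganglionic and cholinergic interneuron genes, Nos1 (log2FC -2.71, adjusted P=0.0181) and Pax2 (-2.45, adjusted P=0.00805) were lower DEGs, also without Sham replicate 2 (adjusted Ps of 0.0432 and 0.0265). Nos1 was not a DEG in 2 of 6 fits with 1 library left out, and Pax2 was in all 6. Like Nefl, Esrrb (log2FC -7.65), Chrna7 (-2.73), Esrrg (-2.35) and Slc44a5 (-2.33) were lower DEGs relative to the summed pan-neuronal counts. So were Chrnb2 (-1.99), Isl2 (-1.54) and Sv2c (-1.46), whereas Slc44a4 (3.41) was a higher one. The other genes named from the 7 lists were not DEGs on that scale. No library was left out on it for these genes.

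No gene of the 7 lists was a DEG in edgeR for SCI + SCS against SCI, and 24 of 76 were higher and 7 lower at an unadjusted P under 0.05, as were 2348 and 1926 of all 17663 genes. Among the genes named, Pax2 (log2FC in edgeR 1.55), Nos1 (1.54), Chrnb2 (1.66), Pcyt1b (1.19) and Chrm3 (1.06) were higher DEGs with DESeq2 only, as was Rbfox3 (1.05) of the pan-neuronal genes. In SCI + SCS against Sham, 960 of all 17640 genes were lower DEGs and 1108 were higher ones. Of 81 genes of the 7 lists, 15 were lower DEGs and none was higher. Of the genes named, Pcyt1b, Chrnb2, Lynx1, Tmem35a, Chrm2, Esrrb, Esrrg, Sv2c and Nefl were among them. Without Sham replicate 2, 3 genes of the 7 lists were lower DEGs and 1 was higher, as were 414 and 629 of all 17927 genes, and of the named genes of these lists only Pcyt1b was a lower one (adjusted P=0.0331).

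**Figure D5:**
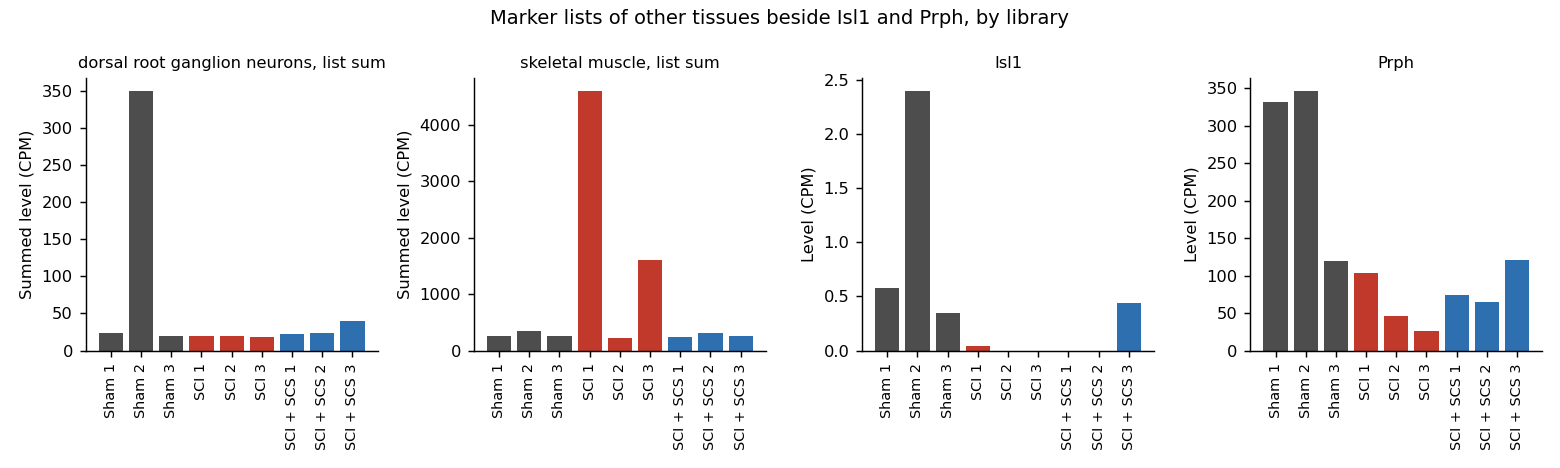
Summed level (CPM) of 12 dorsal root ganglion genes and of 17 skeletal muscle genes in each library, beside the level of Isl1 and Prph. The ganglion genes stand at 349 CPM in Sham replicate 2, where Isl1 is also highest (2.40 CPM), and the muscle genes at 4598 and 1604 CPM in SCI replicates 1 and 3.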

How the data were processed

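RNA-seq was performed on 9 libraries, 3 per group, assigned to groups by title. The authors deposited raw counts of poly(A)-selected mRNA per gene and FPKM (counts divided by gene length and library total, on which limma was run). The submitters' processing notes name fastp 0.23.2, HISAT2 2.2.1 and the build mRatBN7.2. The counting program is not given in the sources used here, and the use of strand is not stated. Counts were compared between pairs of groups with edgeR 4.0.16 (quasi-likelihood test, TMM, default filter on low counts) in R 4.3.3, with Benjamini-Hochberg adjustment over all genes tested. The study's methods name DESeq2, which was run as an alternative (version 1.42.0), as was limma 3.58.1 on log2(FPKM + 1) and log2(FPKM + 0.1), for a mean FPKM of at least 0.1, a scale that understates changes of low genes. The SE of a log2FC was derived as |log2FC| over the root of the F statistic. For values relative to neurons, the library size was the summed count of the 15 pan-neuronal genes. The tests were tested on simulated data. Replicate numbers do not mark shared animals. After removal of group means, same-numbered libraries correlated at -0.36 to 0.27, so the numbers were not taken to pair the rats. Members and lists were chosen with earlier results of these data known. Named genes are all members, up to 3 DEGs per list with the largest |log2FC| in SCI against Sham and no overlap between libraries, and Rbfox3, Snap25 and Tubb3. The genes most like a member are the 5 (Chat) or 3 with the highest r. One of them is not reported here. With 3 rats against 3, an exact permutation test cannot give a P under 0.1. Counting intervals and floors cover counting error only, since PCR reads are not independent molecules.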

Additional observations from a re-analysis of the deposited data

How the results depend on the processing

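Over the alternatives tried, the log2FC of every member kept its direction on the CPM or FPKM scale, and the count of lower member DEGs in SCI against Sham stayed between 4 and 7 of 7. The calls of Slc5a7, Ache and Chodl in that comparison held under all 17 alternatives, those of Chat and Prph were lost under 4 each (1 of 6 libraries left out), and that of Isl1 under 2 (limma on log2(FPKM + 1)). Relative to neurons the members called were Slc5a7 and Isl1 under all 9. The count of member DEGs in SCI + SCS against SCI was 2 with DESeq2 and 2 with unadjusted P-values, and 0 otherwise. For SCI + SCS against Sham it was 0 with the replicate block and 0 to 5 with a library left out, and relative to neurons 1 with the replicate block, 1 with the other transmitter genes as the reference and 0 to 2 with a library left out.

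Over all genes, SCI against Sham gave 4800 DEGs, and 2649 with limma on log2(FPKM + 1), 2550 without a filter as well and 8796 by adjusted P alone. SCI + SCS against SCI gave 1, and 759 with DESeq2, 0 with at least 10 counts in every library, 0 with the replicate block, 0 with rows of 1 identifier summed, 20 and 19 with limma (pseudocounts 1 and 0.1), 988 with unadjusted P-values and 0 to 123 with a library left out. SCI + SCS against Sham gave 2068, and 715 with the replicate block, 921 with limma on log2(FPKM + 1), 843 without a filter as well, 5710 by adjusted P alone and 950 to 2891 with a library left out. The cause was not tested. The replicate block also added Mnx1 in SCI against Sham (adjusted P=0.0276) and removed Chrna3 (0.0515) and Htr1d (0.0909) there.

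Changes of direction were found only for values near 0 on the scale relative to neurons, beside 1 on the CPM scale. With the other transmitter genes as the reference, chosen after the data were seen, the log2FC of Mnx1 was -0.19 in SCI against Sham, 0.041 in SCI + SCS against SCI and -0.15 in SCI + SCS against Sham, and that of Chodl in the last was -0.25. The log2FC of Ache in SCI + SCS against SCI was -0.041 with Rbfox3, Elavl3 and Elavl4 as the reference, and that of Mnx1 there was 0.012 with the replicate block. With a library left out, the log2FC ran from -0.0033 to 0.50 for Mnx1 in SCI against Sham, from -0.021 to 0.58 for Chat, -0.30 to 0.20 for Mnx1 and -0.29 to 0.15 for Prph in SCI + SCS against SCI, and from -0.53 to 0.028 for Chat and -0.0016 to 0.34 for Chodl in SCI + SCS against Sham. On the CPM scale, Sv2c was at -0.13 in SCI + SCS against SCI without SCI + SCS replicate 3. No named gene of the wider lists changed direction otherwise. The depth limits Isl1, Esrrb and Slc44a5, whose SCI libraries had 0 to 5 counts. It also limits Chrna7 and Htr1d, whose SCI libraries had 0 to 8 counts.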
